A study of Arabidopsis thaliana with 24 samples.

Results

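Transcript levels of *rve8-1* seedlings harvested at subjective midday were compared with those of *rve8-1* seedlings harvested late in the subjective night. The midday side held the 4 arrays of circadian times (CT) 4 and 8, harvested 76, 80, 100 and 104 h after transfer to constant light, and the late night side the 4 arrays of CT16 and CT20, harvested at 88, 92, 112 and 116 h. These were 8 of the 12 *rve8-1* arrays and of the 24 arrays of the study, in which the other 12 were hybridized with RNA of the Columbia wild type (Col). Of 30237 genes, 19018 were kept because their log2 expression was above 4.5 on at least 4 of the 12 *rve8-1* arrays. The *rve8-1* mutant is a single line in which a T-DNA interrupts *RVE8* (At3g09600), the gene of a MYB-like transcription factor, and both genotypes were entrained for 7 days in cycles of 12 h light and 12 h dark before release into constant light, so no sample was taken in darkness. Each array carried RNA of pooled whole seedlings, and the day 4 and day 5 harvests of a time of day served as its 2 replicates. All values below are log2 expression levels, and every difference is midday minus late night.

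The plant circadian clock is a network of transcription factors that repress or activate one another in sequence over the day. The MYB-like proteins CCA1 and LHY are most abundant around dawn, the pseudo-response regulators follow one after another from morning to evening, and TOC1 with the evening complex of ELF3, ELF4 and LUX closes the cycle during the night. RVE8 is a relative of CCA1 that activates evening-phased genes, working with the LNK proteins, and plants without it run a slow clock. Circadian time in these samples is the harvest time within the 24 h cycle and was not rescaled to the pace of the mutant. Midday and late night therefore name harvest times, and in *rve8-1* *CCA1* was highest at CT4 and *TOC1* highest at CT16 on both days.

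*RVE8* itself was close to the filter limit in the mutant. It read 4.70 and 4.57 at CT4 and 4.01 and 4.2 at CT8, against 3.17 and 3.21 at CT16 and 3.74 and 3.86 at CT20, and it was above 4.5 on only 3 of the 12 arrays, so it was not among the genes kept and was not tested. The Col arrays ranged between 4.28 and 7.37 for this gene. Medians of the 12 *rve8-1* arrays lay between 4.92 and 4.99, and 57.7% to 63.2% of genes were above 4.5 on each. Among markers of cell types and tissues, 0 of the 4 root, 4 guard cell, 4 pollen and 3 seed storage genes that were kept were called between midday and late night (limma, adjusted p under 0.05), beside 11.2% of all genes kept, a share at which lists this short may hold no call. Among leaf markers 2 of 6 were higher at midday (7.19% of all genes kept), namely *LHCB2.1* and *CHLH*, both of which belong to the pathway lists below. In whole seedlings a smaller number of cells of a type and less RNA per cell cannot be told apart.

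The comparison called 2122 of the 19018 genes (11.2%) at an adjusted p under 0.05, of which 1368 were higher at midday (7.19%) and 754 lower (3.96%). Differences reached 2-fold for 231 genes higher at midday (1.21%) and 81 lower (0.426%). Over all genes kept, the difference had a median of 0.04 (25th to 75th percentile, -0.16 to 0.27) and a median SE of 0.13, an error taken from the spread between days within each time of day, so that a change between CT4 and CT8, or between CT16 and CT20, is not part of it. The 4 midday arrays lay wholly above the 4 late night arrays for 2525 genes (13.3%) and wholly below them for 1480 (7.78%). Among genes called, 1118 of the higher (81.7%) and 633 of the lower (84.0%) had such arrays without overlap. Only 5 genes passed the filter through one side alone, 1 through the midday arrays and 4 through the late night arrays. The split between directions depended on scaling, since after quantile normalization 996 genes were higher and 1103 lower, which put 47.5% of calls on the higher side in place of 64.5%. Leaving out 1 array at a time gave between 473 genes (without the 76 h array) and 3358 (without the 104 h array).

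The morning members of the clock included the 2 genes with the largest differences of the comparison, *LNK3* and *LNK4*. All 12 morning clock genes that were kept passed the test, 11 of them higher at midday and 1 lower, beside 7.19% higher and 3.96% lower among all genes kept. Their median difference was 1.91, beside 0.04 over all genes kept. The list was led by *LNK3*, *LNK4* and *LNK2*, of a family of 4 genes whose proteins have no DNA-binding domain of their own and act as partners of RVE8 and RVE4. *LNK3* (At3g12320) read 9.19 and 8.72 at CT4 and 8.44 and 8.39 at CT8, against 4.75 and 4.82 at CT16 and 5.06 and 5.34 at CT20. All midday values thus lay far above all late night values, and the difference was 3.69 ± 0.16 (SE, adjusted p = 1.51e-05), or 12.9-fold. *LNK4* (At5g06980) read 9.37 and 8.78 at CT4 and 8.85 and 8.80 at CT8, against 5.17 and 5.54 at CT16 and 4.99 and 5.50 at CT20, a difference of 3.65 ± 0.20 (SE, adjusted p = 2.14e-05). *LNK2* (At3g54500) lay between 7.53 and 8.45 at midday and between 5.11 and 5.43 late at night, a difference of 2.88 ± 0.16 (SE, adjusted p = 2.14e-05). *LNK1* (At5g64170) lay between 6.93 and 7.39 at midday and between 4.72 and 5.46 late at night, with a difference of 2.06 ± 0.12 (SE, adjusted p = 4.1e-05). In none of the 4 family members did the arrays of the sides overlap, and CT4 and CT8 were both high. *LNK1*, *LNK2* and *LNK3* were higher at CT4 than at CT8 on each day.

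*CCA1* and *LHY*, the core dawn repressors, were also higher on the midday arrays, but their values depended on the hour within each side. *CCA1* (At2g46830) read 7.62 and 7.76 at CT4 and 6.30 and 6.83 at CT8, against 4.25 and 4.61 at CT16 and 5.55 and 5.50 at CT20, so that CT4 was above CT8 and CT20 above CT16 on both days. The difference was 2.15 ± 0.17 (SE, adjusted p = 0.000172), or 4.44-fold. *LHY* (At1g01060) read 8.11 and 8.32 at CT4 and 6.49 and 7.17 at CT8, against 4.86 and 4.83 at CT16 and 6.60 and 5.87 at CT20. Its 80 h value lay below its 92 h value, so the sides overlapped by 1 pair of arrays, and the difference was 1.98 ± 0.23 (SE, adjusted p = 0.00124). A cosine of 24 h fitted to all 12 arrays put the peaks of *CCA1* and *LHY* at 3.48 and 2.76 h in *rve8-1*, against 22.9 and 22.2 h in Col.

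The REVEILLE relatives of *CCA1* did not move as a block. *RVE1*, which promotes auxin synthesis, read 7.51, 7.63, 6.22 and 6.67 on the midday arrays and 5.25, 5.58, 6.43 and 6.33 on the late night arrays (CT4 values before CT8, and CT16 before CT20), overlapping between sides, and differed by 1.11 ± 0.15 (SE, adjusted p = 0.00258). *RVE7*, a close relative of *CCA1* also named *EPR1*, lay between 6.79 and 7.58 at midday and between 5.35 and 6.45 late at night, a difference of 1.14 ± 0.13 (SE, adjusted p = 0.00124). *RVE4*, a close relative of *RVE8*, differed by 0.60 ± 0.13 (SE, adjusted p = 0.0223) without overlap, a call that was lost in 5 of 21 alternative settings. *RVE2* was the exception among the morning genes. It read 7.52 and 7.78 at CT4 and 7.08 and 6.85 at CT8, against 8.55 and 9.22 at CT16 and 9.05 and 9.17 at CT20, all midday arrays below all late night arrays, a difference of -1.69 ± 0.16 (SE, adjusted p = 0.000572), and its fitted peak was at 19.4 h in *rve8-1*, against 14.5 h in Col.

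Morning pseudo-response regulators, which repress *CCA1* and *LHY* during the day, followed. *PRR9* (At2g46790) read 5.39 and 4.91 at CT4 and 5.71 and 5.61 at CT8, against 3.25 and 3.78 at CT16 and 3.38 and 3.86 at CT20, with every late night value under 4.5, a difference of 1.84 ± 0.18 (SE, adjusted p = 0.000593). *PRR7* (At5g02810) read 5.18 and 5.32 at CT4 and 6.04 and 6.11 at CT8, against 4.77 and 5.11 at CT16 and 3.52 and 3.65 at CT20, and differed by 1.4 ± 0.11 (SE, adjusted p = 0.000146). The highest late night values of *PRR7* were those of CT16, the hour nearer to its fitted peak of 9.56 h, and they stayed below both midday hours on each day.

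**Figure D1:**
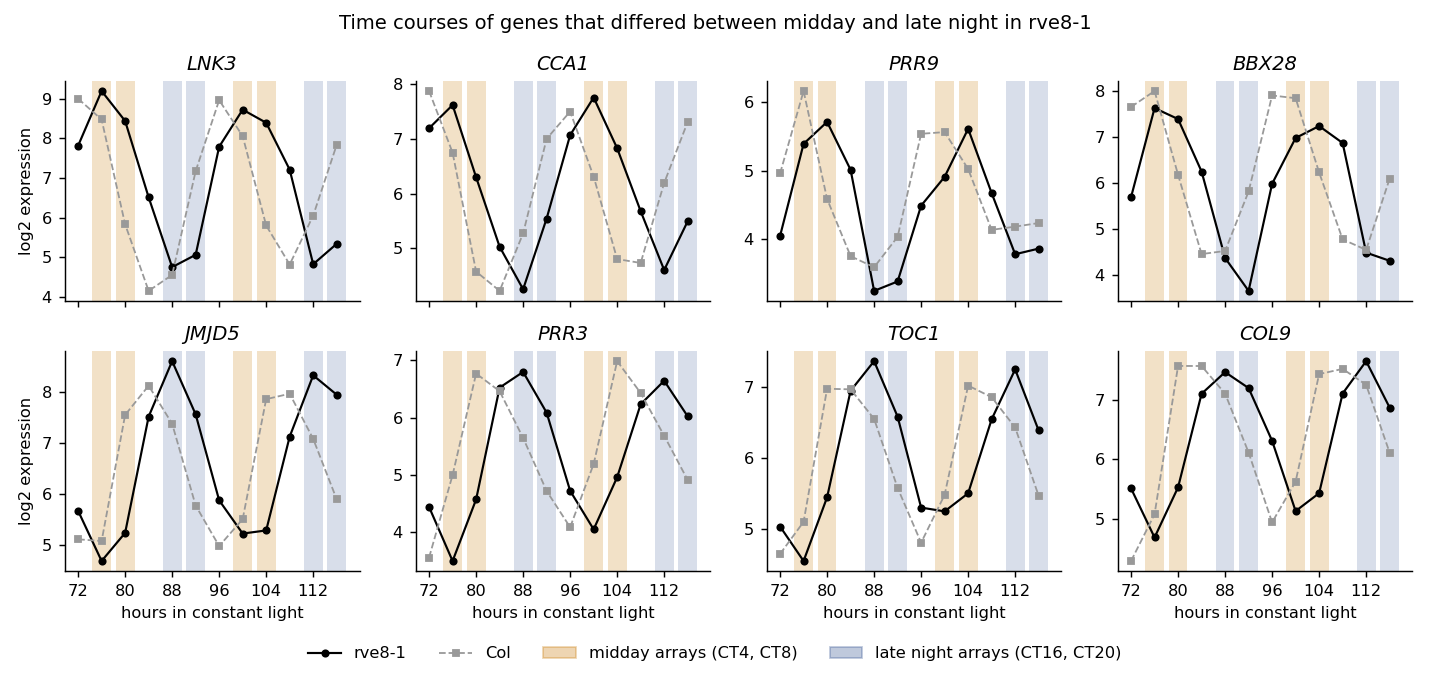
Log2 expression of 8 genes in *rve8-1* (black) and Col (grey, dashed) against hours in constant light, 1 array per point, with the midday harvests shaded orange and the late night harvests shaded blue. *LNK3* sat between 8.39 and 9.19 on the *rve8-1* midday arrays and between 4.75 and 5.34 on the late night arrays, while *JMJD5* sat between 4.68 and 5.28 at midday and between 7.56 and 8.60 late at night.

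Afternoon and evening clock genes ran the other way. Of 13 kept, 8 were lower at midday, 1 was higher and 4 were not called, with a median difference of -0.75. Among all genes kept 3.96% were lower and 7.19% higher, with a median of 0.04. *PRR3*, which protects TOC1 from degradation, fell furthest, reading 3.5 and 4.05 at CT4 and 4.57 and 4.96 at CT8, against 6.79 and 6.64 at CT16 and 6.08 and 6.02 at CT20, a difference of -2.11 ± 0.15 (SE, adjusted p = 0.000108). Its CT4 values lay under the filter limit of 4.5, where signal cannot be told from background, so no fold is given. *TOC1* (At5g61380), the repressor of *CCA1* and *LHY* in the evening, read 4.55 and 5.25 at CT4 and 5.45 and 5.51 at CT8, against 7.37 and 7.25 at CT16 and 6.58 and 6.39 at CT20, and differed by -1.71 ± 0.16 (SE, adjusted p = 0.000543). Neither gene overlapped between sides, and in both the CT16 values were the highest of the 8 arrays.

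The evening complex was represented by *ELF3*, *ELF4* and *LUX*. *ELF3*, its scaffold, lay between 4.69 and 5.31 at midday and between 6.06 and 6.48 late at night, a difference of -1.15 ± 0.14 (SE, adjusted p = 0.00155). *LUX*, the DNA-binding subunit, read 4.85 and 4.93 at CT4 and 6.18 and 5.99 at CT8, against 6.50 and 6.61 at CT16 and 6.01 and 5.83 at CT20. Its CT8 values were slightly above its CT20 values on each day, and the difference of -0.75 ± 0.13 (SE, adjusted p = 0.00849) came with overlapping arrays. *BOA*, the paralog of *LUX*, lay between 3.73 and 4.23 at midday and between 4.78 and 4.95 late at night, a difference of -0.88 ± 0.15 (SE, adjusted p = 0.00699). For *ELF4*, with values between 7.45 and 8.23 at midday and between 7.99 and 8.90 late at night, the difference of -0.63 ± 0.19 (SE, adjusted p = 0.0629) did not pass the test.

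Photoreceptor and cold-linked members of the evening list were split. *FKF1*, a blue light receptor of the F-box type that acts in flowering, read 3.74 and 3.70 at CT4 and 5.25 and 4.78 at CT8, against 6.06 and 6.23 at CT16 and 4.94 and 5.06 at CT20, overlapping between CT8 and CT20, and differed by -1.21 ± 0.14 (SE, adjusted p = 0.00117). Its relatives *ZTL*, at -0.04 ± 0.13 (SE, adjusted p = 0.834), and *LKP2*, at -0.13 ± 0.13 (SE, adjusted p = 0.513), were not called. *COR27*, a cold-regulated gene, read 4.62 and 4.81 at CT4 and 6.93 and 6.34 at CT8, against 8.11 and 8.27 at CT16 and 6.84 and 7.23 at CT20. Its 80 h value lay above its 92 h value, so the sides overlapped, and the difference was -1.93 ± 0.24 (SE, adjusted p = 0.00203). The CT8 values of *COR27* stood well above those of CT4 on both days. *PRR5* differed by -0.74 ± 0.14 (SE, adjusted p = 0.0131) with overlapping arrays, and *GI*, by -0.40 ± 0.15 (SE, adjusted p = 0.105), was not called. *CHE* was the only evening list member that was higher at midday, by 0.51 ± 0.12 (SE, adjusted p = 0.0295), a call that was lost in 10 of 21 alternative settings.

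The 12 largest rises with a symbol in the reference annotation and arrays without overlap held *CCA1*, *PRR9* and 10 genes outside the clock lists. The 5 described first encode B-box and CONSTANS-like proteins, zinc finger regulators of light responses and flowering, which were put together after their values were seen and not tested as a group. *BBX28* (At4g27310), a repressor of photomorphogenesis, read 7.63 and 6.98 at CT4 and 7.39 and 7.24 at CT8, against 4.37 and 4.48 at CT16 and 3.65 and 4.31 at CT20, a difference of 3.10 ± 0.20 (SE, adjusted p = 6.27e-05). All of its late night values lay under the filter limit of 4.5, where the deposited values do not tell signal from background, so no fold is given. *COL2* (At3g02380), a relative of *CONSTANS*, read 9.30 and 9.18 at CT4 and 8.0 and 8.26 at CT8, against 5.13 and 5.06 at CT16 and 6.77 and 6.74 at CT20, a difference of 2.76 ± 0.15 (SE, adjusted p = 2.14e-05). *COL5* (At5g57660) read 8.86 and 8.74 at CT4 and 8.89 and 9.27 at CT8, against 7.33 and 7.83 at CT16 and 6.09 and 6.43 at CT20, a difference of 2.02 ± 0.14 (SE, adjusted p = 0.000108). *COL2* was higher at CT4 than at CT8 and *COL5* was higher at CT8, while late at night *COL2* was higher at CT20 and *COL5* higher at CT16. *BBX16* differed by 2.15 ± 0.16 (SE, adjusted p = 0.000123) and *BBX30*, a microprotein of the family, by 1.84 ± 0.24 (SE, adjusted p = 0.00226), both without overlap.

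The other large rises included those of a kinase and of a pigment enzyme. *CIPK20* (At5g45820), a calcium-linked protein kinase, read 6.61 and 6.48 at CT4 and 6.90 and 6.94 at CT8, against 4.16 and 4.85 at CT16 and 3.34 and 3.64 at CT20, a difference of 2.73 ± 0.15 (SE, adjusted p = 2.14e-05). *BETA-OHASE 2* (At5g52570), a beta-carotene hydroxylase of xanthophyll synthesis, read 8.61 and 8.46 at CT4 and 7.74 and 7.63 at CT8, against 4.79 and 5.05 at CT16 and 6.75 and 6.24 at CT20, a difference of 2.40 ± 0.17 (SE, adjusted p = 0.000108). *SAUR15*, an auxin-induced gene, lay between 7.59 and 8.61 at midday and between 5.64 and 6.74 late at night, a difference of 2.1 ± 0.30 (SE, adjusted p = 0.00381), and *GDPD6*, a glycerophosphodiester phosphodiesterase, lay between 5.57 and 6.40 at midday and between 3.40 and 4.89 late at night, a difference of 1.98 ± 0.20 (SE, adjusted p = 0.000586). The kinase was slightly higher at CT8 than at CT4, whereas the hydroxylase was higher at CT4.

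Among the falls with a symbol, *JMJD5* (At3g20810), a jumonji-domain protein tied to the clock, went furthest. It read 4.68 and 5.21 at CT4 and 5.23 and 5.28 at CT8, against 8.60 and 8.32 at CT16 and 7.56 and 7.94 at CT20, a difference of -3.01 ± 0.16 (SE, adjusted p = 2.14e-05), or 8.03-fold lower at midday. *BT2* (At3g48360), a BTB and TAZ domain scaffold protein, read 5.90 and 6.72 at CT4 and 6.80 and 7.00 at CT8, against 9.11 and 9.77 at CT16 and 8.58 and 8.64 at CT20, a difference of -2.42 ± 0.29 (SE, adjusted p = 0.00152). *COL9* (At3g07650), a flowering repressor, read 4.69 and 5.13 at CT4 and 5.53 and 5.43 at CT8, against 7.46 and 7.65 at CT16 and 7.19 and 6.87 at CT20, a difference of -2.10 ± 0.18 (SE, adjusted p = 0.000285). *BBX8*, another B-box gene, differed by -1.55 ± 0.17 (SE, adjusted p = 0.0009).

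The remaining large falls included 4 genes of enzymes. *NYC1* (At4g13250), the chlorophyll b reductase, lay between 6.43 and 7.76 at midday and between 8.64 and 9.58 late at night, a difference of -1.73 ± 0.26 (SE, adjusted p = 0.00443). *CT-BMY* (At4g17090), a chloroplast beta-amylase of starch breakdown, read 7.92 and 8.64 at CT4 and 7.66 and 7.95 at CT8, against 9.46 and 9.54 at CT16 and 9.96 and 9.68 at CT20, a difference of -1.62 ± 0.17 (SE, adjusted p = 0.000668), or 3.08-fold lower at midday. *RIBA2*, of riboflavin synthesis, lay between 5.05 and 6.44 at midday and between 7.05 and 7.44 late at night, a difference of -1.45 ± 0.15 (SE, adjusted p = 0.000817). *FBA5*, a fructose-bisphosphate aldolase, lay between 7.83 and 9.01 at midday and between 9.58 and 10.27 late at night, a difference of -1.41 ± 0.14 (SE, adjusted p = 0.00057), and *emb2746*, a gene needed for embryo development, fell by 1.5 ± 0.16 (SE, adjusted p = 0.000929).

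**Figure D2:**
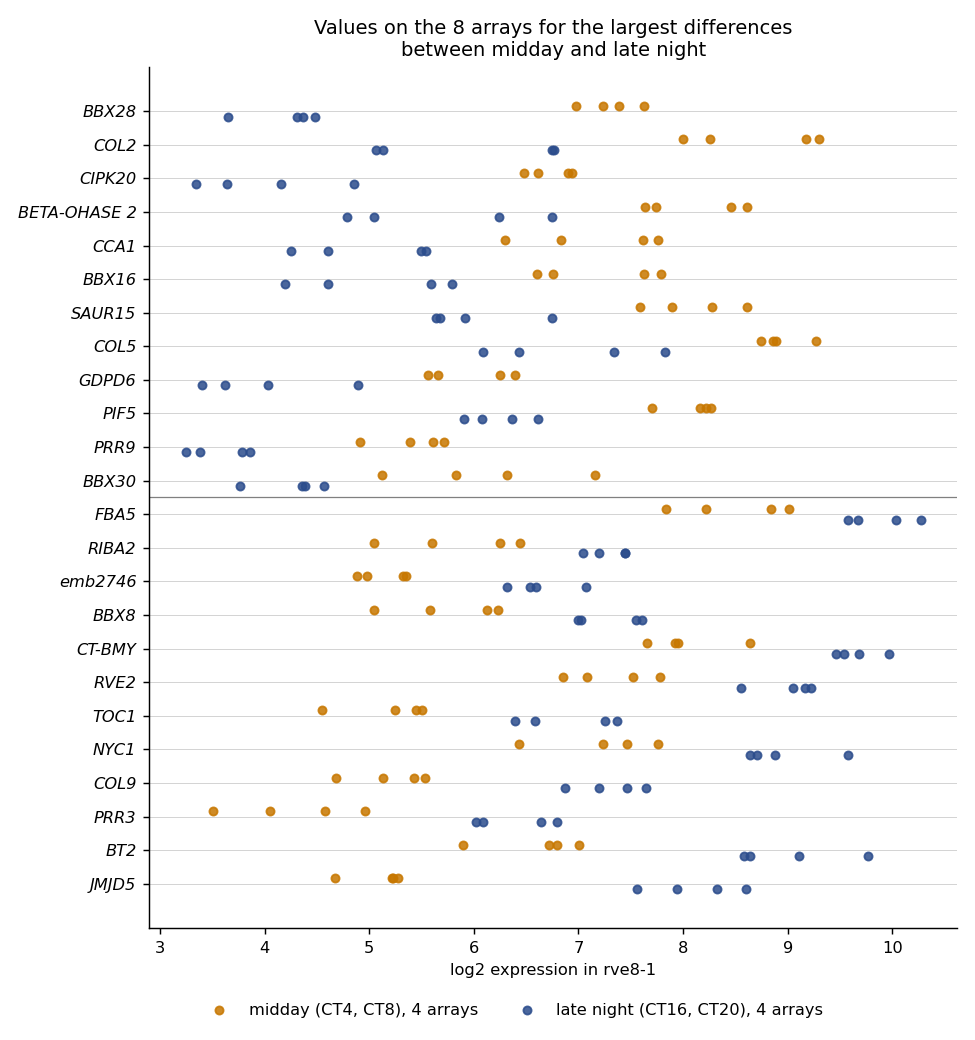
Log2 expression of the 12 largest rises (above the line) and 12 largest falls (below it) among called genes with a symbol in the reference annotation and arrays that do not overlap, with 4 midday arrays (orange) drawn above 4 late night arrays (blue) for each gene. The horizontal gap between the colours is widest for *BBX28*, at 6.98 or more at midday and 4.48 or less late at night, and for *JMJD5*, at 5.28 or less at midday and 7.56 or more late at night.

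Within the lists of photoperiodic flowering genes and of growth genes, every call was a rise, whereas *FKF1* and *COL9*, which act in flowering but belong to neither list, were lower at midday. Of 9 photoperiodic flowering genes kept, 3 were higher at midday and none lower, beside 7.19% higher and 3.96% lower among all genes kept. Rises made up 64.5% of all calls, so a list with few calls may hold rises alone. *CDF3* and *CDF2*, which repress *CONSTANS* transcription, differed by 1.57 ± 0.12 (SE, adjusted p = 0.000147) and 1.22 ± 0.15 (SE, adjusted p = 0.00147), and *TEM2*, a repressor of *FT*, by 1.23 ± 0.14 (SE, adjusted p = 0.00119). *CO* itself, at -0.23 (adjusted p = 0.389), and *FT*, at 0.36 (adjusted p = 0.138), were not called. Of 14 phytochrome-interacting factors and growth genes kept, 5 were higher and none lower, beside the same shares of all genes kept. *PIF5* read 8.17 and 8.22 at CT4 and 7.70 and 8.26 at CT8, against 6.36 and 6.61 at CT16 and 5.91 and 6.08 at CT20, a difference of 1.85 ± 0.14 (SE, adjusted p = 0.000145). *PIF4*, which with *PIF5* drives hypocotyl elongation, read 7.39 and 7.13 at CT4 and 7.67 and 7.99 at CT8, against 6.63 and 7.06 at CT16 and 4.36 and 5.28 at CT20, a difference of 1.71 ± 0.20 (SE, adjusted p = 0.00121). Late at night its CT16 values stood well above its CT20 values on each day. *HFR1*, an inhibitor of these factors, differed by 0.92 ± 0.17 (SE, adjusted p = 0.013) with overlapping arrays. Of the 11 photoreceptor genes 0 were called, beside 11.2% of all genes kept, which in a list of this length is near that share, and their differences lay between -0.35 and 0.32.

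Lists of the photosynthetic apparatus were read beside the 7.19% of all genes kept that were higher at midday, and were not tested against one another. Of 15 light-harvesting antenna proteins, 9 were higher at midday, none was lower and 6 were not called, with a median difference of 0.51. *LHCB2.3* (At3g27690), of the trimeric antenna of photosystem II, read 12.48 and 12.38 at CT4 and 12.37 and 12.37 at CT8, against 10.43 and 10.86 at CT16 and 10.78 and 10.66 at CT20, a difference of 1.72 ± 0.12 (SE, adjusted p = 9.57e-05), or 3.29-fold. *LHCB1.4* differed by 1.06 ± 0.11 (SE, adjusted p = 0.000794) and *LHCB2.1* by 0.98 ± 0.15 (SE, adjusted p = 0.00492). The antenna genes share sequence within families, and signal from close copies could not be separated in summarized values. Of 15 tetrapyrrole genes, 3 were higher and none lower, and all 3 were close to the threshold. *PORA*, the protochlorophyllide oxidoreductase of etiolated seedlings, differed by 0.94 ± 0.23 (SE, adjusted p = 0.0354). *HEMA1*, the first committed step, differed by 0.73 ± 0.19 (SE, adjusted p = 0.0423), and *CHLH*, a magnesium chelatase subunit, by 0.67 ± 0.16 (SE, adjusted p = 0.0331). These calls were lost in 9 of 20, 12 of 21 and 12 of 21 alternative settings. In the carbon fixation list 0 of 10 genes kept were called, near the 11.2% of all genes kept at this length, with differences from -0.46 to 0.08.

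Starch degradation was the metabolic list with the most falls. Of 14 genes kept, 7 were lower at midday, 1 was higher and 6 were not called, with a median difference of -0.49, beside 3.96% lower and a median of 0.04 among all genes kept. *PHS2*, a glucan phosphorylase, read 5.83 and 6.25 at CT4 and 7.06 and 6.87 at CT8, against 8.17 and 8.23 at CT16 and 7.63 and 7.17 at CT20, a difference of -1.30 ± 0.14 (SE, adjusted p = 0.000909). *SEX1*, the glucan water dikinase that opens starch granules to attack, lay between 5.0 and 5.63 at midday and between 5.87 and 6.95 late at night, a difference of -1.04 ± 0.15 (SE, adjusted p = 0.00386), and *BAM6*, a beta-amylase, differed by -1.20 ± 0.21 (SE, adjusted p = 0.0102). The debranching enzymes *ISA3*, at -1.01 (adjusted p = 0.00725), and *LDA*, at -0.58 (adjusted p = 0.0304), and the disproportionating enzyme *DPE1*, at -0.89 (adjusted p = 0.00297), were lower too. The exception was *BAM9*, at 0.48 (adjusted p = 0.0384). *CT-BMY*, described above, is not in these counts, because its other name, *BAM3*, also names a receptor kinase. By symbol alone *BAM3* matched the kinase, and it was set aside as ambiguous after values had been seen. The same was done for *CAO* in the tetrapyrrole list.

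Starch synthesis genes were mixed, with 1 of 12 higher and 2 lower, beside 7.19% higher and 3.96% lower among all genes kept. *GBSS1*, which makes amylose, read 9.01 and 9.18 at CT4 and 8.20 and 8.24 at CT8, against 6.50 and 6.02 at CT16 and 8.29 and 7.77 at CT20, a difference of 1.52 ± 0.19 (SE, adjusted p = 0.00165), with the 92 h value inside the midday range. *SBE2.1*, a branching enzyme, differed by -1.07 ± 0.15 (SE, adjusted p = 0.00333), and *SS4*, which initiates granules, by -0.88 ± 0.14 (SE, adjusted p = 0.00573). In the MEP and carotenoid pathway 2 of 17 genes were higher and 1 lower. The counts of these lists are too small to set either apart from all genes. Both enzymes that run the xanthophyll cycle were called, in opposite directions. *ABA1*, the zeaxanthin epoxidase, lay between 8.62 and 9.27 at midday and between 7.62 and 8.26 late at night, a difference of 1.05 ± 0.14 (SE, adjusted p = 0.00213). *NPQ1*, the violaxanthin de-epoxidase, lay between 6.74 and 7.36 at midday and between 7.67 and 8.23 late at night, a difference of -0.77 ± 0.13 (SE, adjusted p = 0.00834). *ISPH*, the last step of the MEP pathway, differed by 0.72 ± 0.12 (SE, adjusted p = 0.00687).

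The other lists held between 1 and 4 calls each, beside 11.2% of all genes kept. The heat shock, jasmonate and cold lists were above that share and the other 4 below it, on counts too small for these lists to be set apart from all genes. In phenylpropanoid and flavonoid synthesis 1 of 17 genes was higher, *LDOX*, an anthocyanidin synthase, by 1.07 ± 0.27 (SE, adjusted p = 0.0349) with overlapping arrays. In the cold and dehydration list 2 of 11 were lower, *RD29A* at -1.0 ± 0.14 (SE, adjusted p = 0.0037) and *COR15B* at -0.88 ± 0.25 (SE, adjusted p = 0.0476). Nitrate and sulphate assimilation had 1 of 13 lower, *NIR1*, the nitrite reductase, at -0.58 ± 0.16 (SE, adjusted p = 0.0428). The jasmonate list had 3 of 19 lower, led by *LOX2* at -0.64 ± 0.16 (SE, adjusted p = 0.0341) and *LOX3* at -0.54 ± 0.14 (SE, adjusted p = 0.0396), and 1 higher, *JAZ6*, a repressor of the response, at 0.58 ± 0.14 (SE, adjusted p = 0.0348). Glucosinolate synthesis had 1 of 18 higher, *SOT17*, at 0.40 ± 0.09 (SE, adjusted p = 0.0266). Heat shock genes had 2 of 8 higher, *HSP18.2* at 0.75 ± 0.18 (SE, adjusted p = 0.0312) and *HSFB2A* at 0.51 ± 0.12 (SE, adjusted p = 0.0292). Of 11 housekeeping genes, *ACT2*, an actin, was lower, at -0.49 ± 0.12 (SE, adjusted p = 0.0347). Apart from *RD29A*, the call of each gene named from these lists was lost in 7 to 13 of 20 or 21 alternative settings.

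**Figure D3:**
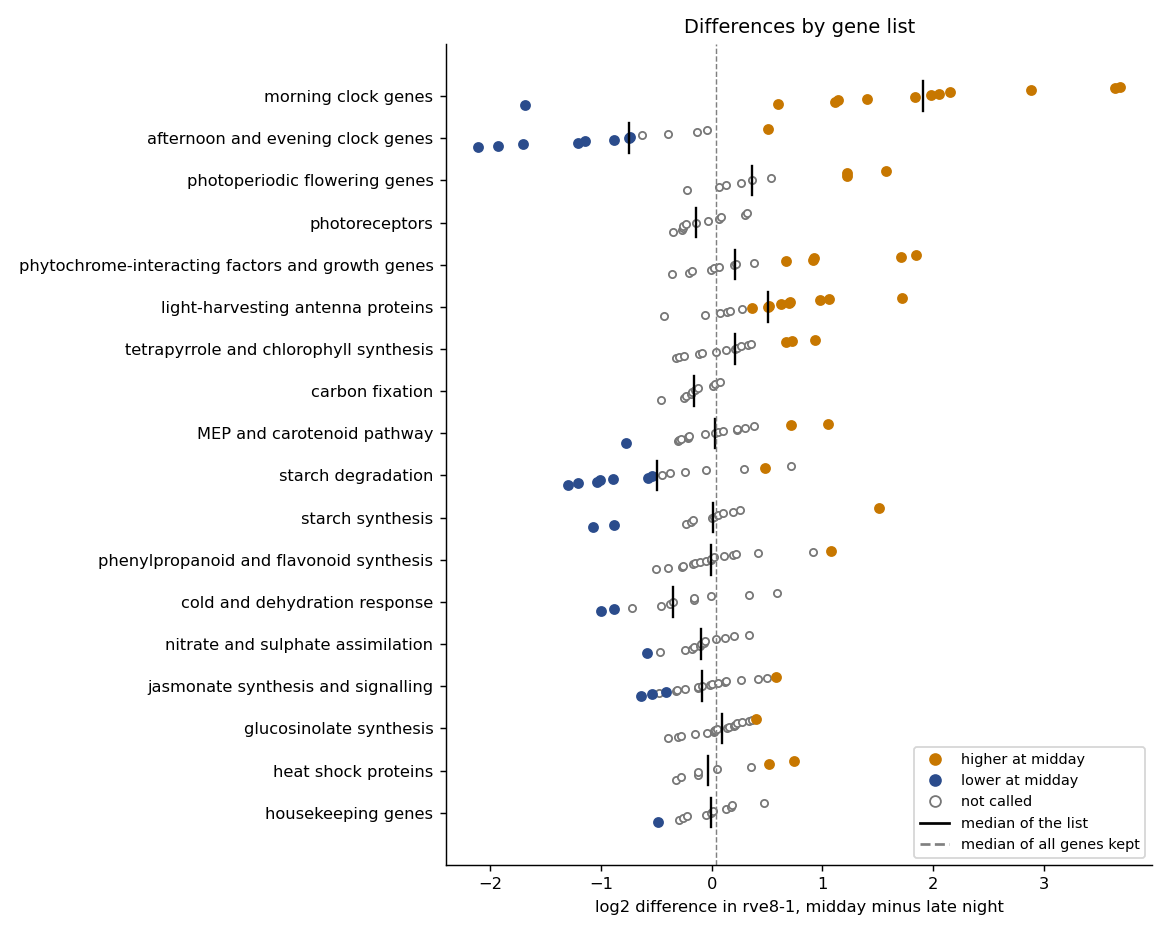
Log2 difference, midday minus late night, of every gene kept in 18 lists, 1 point per gene, orange where called higher, blue where called lower and open where not called, with a black bar at the median of each list and a dashed line at the median of all genes kept (0.04). Morning clock genes spread from -1.69 to 3.69 with a median of 1.91, and afternoon and evening clock genes from -2.11 to 0.51 with a median of -0.75.

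The difference between midday and late night was set beside that between CT0 and CT12 in the same *rve8-1* fit, which uses the 4 arrays that neither side holds. That comparison called 810 genes (4.26%), 327 higher at CT0 (1.72%) and 483 lower (2.54%). Of the 2122 genes called here, 320 (15.1%) were called there too and 1802 were not. Both comparisons take their error from the same 12 arrays, so a gene with a small error is more readily called in each. Genes higher at midday divided into 125 that were also higher at CT0 and 77 that were lower at CT0, whereas those lower at midday divided into 14 and 104.

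Named genes fell on each part of this second axis. *COL2* and *BETA-OHASE 2* had a CT0 minus CT12 difference of 2.48 (adjusted p = 0.000499) and 2.12 (adjusted p = 0.00153), and *CCA1* one of 1.78 (adjusted p = 0.00318). For *CIPK20*, *COL5* and *PIF4*, which were also called higher at midday, the CT0 minus CT12 differences were -1.55 (adjusted p = 0.00327), -1.87 (adjusted p = 0.00138) and -2.62 (adjusted p = 0.00126). *LNK3* at 0.94 (adjusted p = 0.0539), *LNK4* at 0.27 (adjusted p = 0.685) and *BBX28* at -0.72 (adjusted p = 0.234) were not called on it. Cosine peaks fitted to the *rve8-1* arrays, which use the same values, lay between 0 and 4 h for 263 of the genes higher at midday, between 4 and 8 h for 959 and between 8 and 12 h for 146. Of the genes lower at midday, 183 peaked between 12 and 16 h, 530 between 16 and 20 h and 41 between 20 and 24 h.

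**Figure D4:**
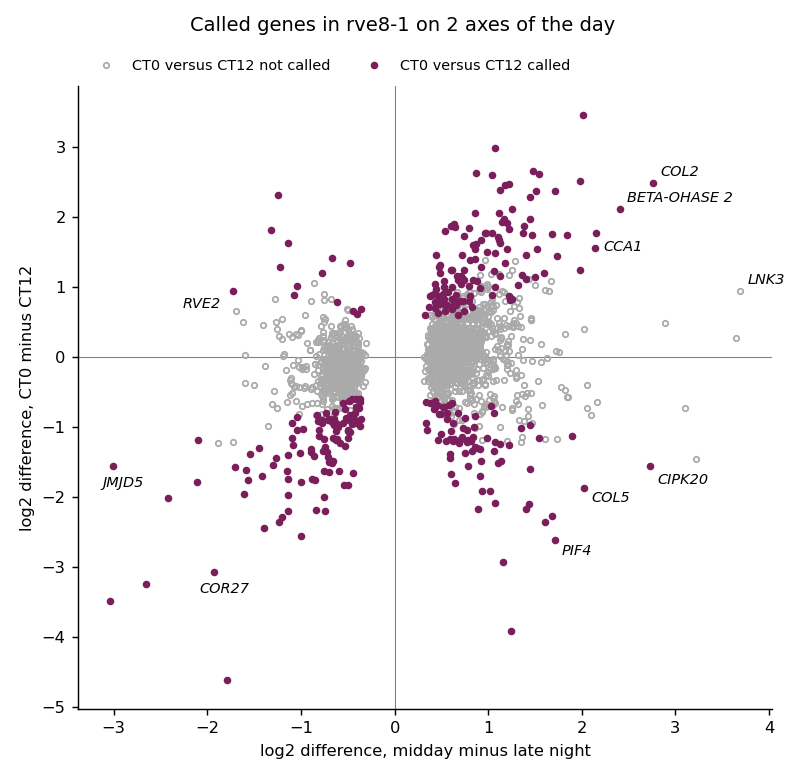
Log2 differences of the 2122 called genes in *rve8-1*, midday minus late night on the horizontal axis and CT0 minus CT12 on the vertical axis, with filled points for the 320 genes also called between CT0 and CT12. Filled points lie both above and below 0 for genes higher at midday (125 and 77), and mostly below 0 for genes lower at midday (14 and 104).

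To learn how far the comparison was particular to the mutant, its differences were tested against those of Col in a fit of all 24 arrays. At the same harvest times the differences of the genotypes were unequal for 1937 genes (10.2%), 1266 with the larger value in *rve8-1* (6.66%) and 671 with the smaller (3.53%). In 1580 of these 1937 genes the differences had opposite signs, while over all genes kept 61.7% had the same sign. Genes picked for unequal differences tend to differ in sign, so the 1580 are no separate result. Of the 1937 genes, 851 were among those called within *rve8-1*, beside 11.2% of all genes kept. Both tests use the same *rve8-1* arrays. *CCA1* was higher at midday in *rve8-1* by 2.15, while in Col it differed by -0.84, and the difference of differences was 2.99 ± 0.29 (SE, adjusted p = 9.22e-06). For *BETA-OHASE 2* the values were 2.40 in *rve8-1* and -1.68 in Col, unequal by 4.08 ± 0.29 (SE, adjusted p = 3.18e-07). *PRR3*, at -2.11 in *rve8-1*, stood at 0.74 in Col, unequal by -2.85 ± 0.20 (SE, adjusted p = 2.86e-07), and *JMJD5* stood at -3.01 and -0.03, unequal by -2.97 ± 0.21 (SE, adjusted p = 2.86e-07).

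The 5 genes with the smallest p in this test changed sign between the genotypes. *BBX32*, a B-box repressor of light responses, differed by 0.87 in *rve8-1* and -2.38 in Col, unequal by 3.25 ± 0.18 (SE, adjusted p = 7.61e-08). *ERD9*, a glutathione S-transferase, differed by 1.17 and -1.32. *RUP2*, a repressor of UV-B signalling, differed by 0.92 and -0.80, and At5g66740 by 0.93 and -1.35. *AMY3*, an alpha-amylase, ran the other way, with -0.54 in *rve8-1* and 1.48 in Col. Genes not called in this test included *PRR9*, at 0.52 ± 0.29 (SE, adjusted p = 0.305), *CIPK20*, at 0.41 ± 0.34 (SE, adjusted p = 0.506), *COL5*, at -0.16 ± 0.22 (SE, adjusted p = 0.7), and *CT-BMY*, at -0.43 ± 0.19 (SE, adjusted p = 0.189). A p above the threshold does not show the differences to be equal.

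When Col was taken 4 h earlier, at CT0 and CT4 minus CT12 and CT16, no gene had an unequal difference in limma's test (0 of 19018, 0.0%). The smallest adjusted p was 0.0539, and 3180 genes had an unadjusted p under 0.05. The comparisons with Col share the Col arrays of CT4 and CT16. Genes higher at midday in *rve8-1* had a median difference in Col of 0.14 at the same times and of 0.32 taken 4 h earlier, beside 0.67 in *rve8-1*, by whose values they were chosen. Genes lower at midday had medians in Col of -0.10 and -0.46, beside -0.56. The Col difference had the sign of the *rve8-1* one for 66.2% of the genes higher and 67.4% of those lower at the same times, and for 90.4% and 94.7% taken 4 h earlier, beside 61.7% and 68.2% of all genes kept. *LNK3* stood at 3.69 in *rve8-1* and 3.73 in Col 4 h earlier, *CCA1* at 2.15 and 2.00, *PRR3* at -2.11 and -1.59, and *JMJD5* at -3.01 and -2.47. Some named genes lay further apart, such as *BETA-OHASE 2* at 2.40 and 1.49, *FBA5* at -1.41 and -0.58 and *GI* at -0.40 and 0.26.

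Of the 5 genes with the smallest p against Col 4 h earlier, 3 are named here by locus, having no symbol in the reference annotation. The largest gap was that of At1g30390, annotated as a pseudogene, at -1.41 in *rve8-1* and 0.92 in Col, unequal by -2.33 ± 0.34 (SE, adjusted p = 0.0539). *BBX32* was at 0.87 and -0.35, unequal by 1.22 ± 0.18 (SE, adjusted p = 0.0539). *CLE10*, a signalling peptide gene, was at -0.72 and 0.29, and At1g64065 and At1g08230 were at 0.88 and -0.07 in *rve8-1*, against -0.20 and -0.69 in Col. A cosine peak was later in *rve8-1* than in Col by a median of 4.09 h for the genes higher at midday and 4.1 h for those lower. Leaving out the 92 h array of *rve8-1* turned the 0 genes into 294.

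**Figure D5:**
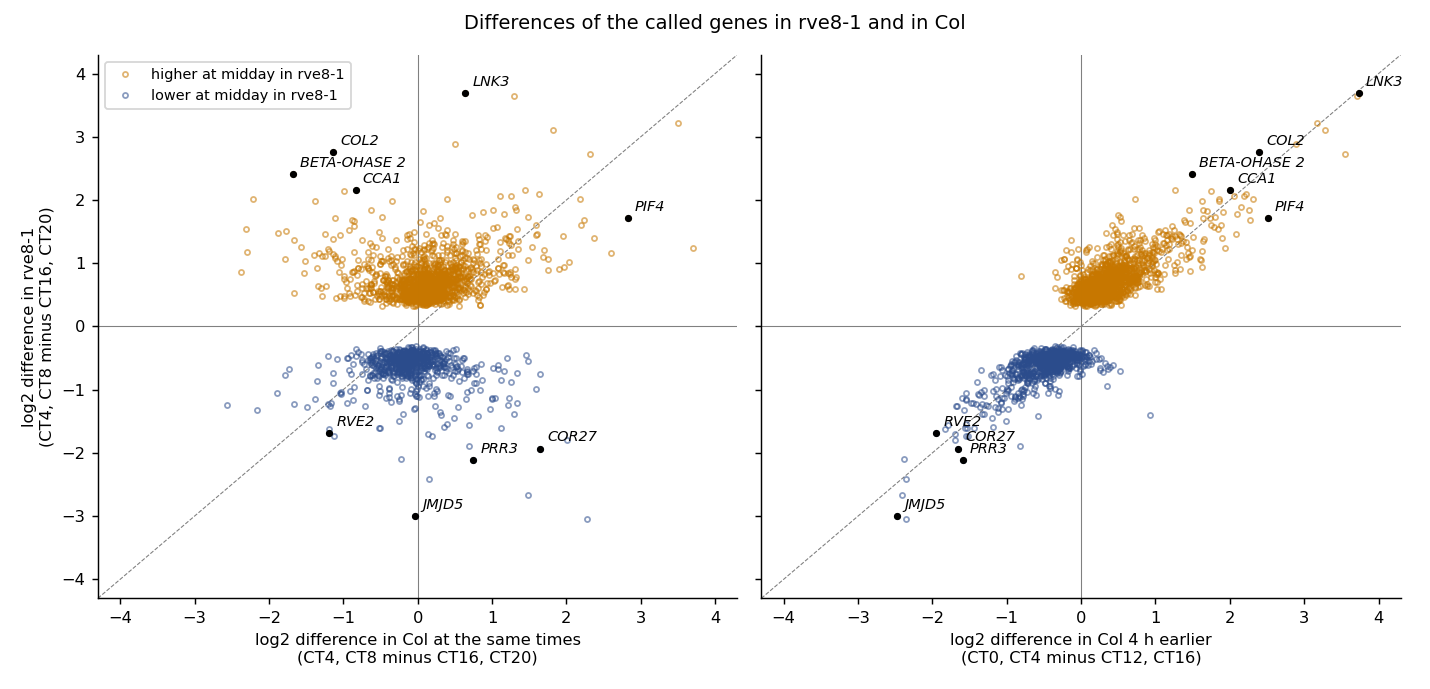
Log2 differences, midday minus late night, of the 2122 called genes in *rve8-1* (vertical axis) against the difference of the same genes in Col at the same times (left panel) and 4 h earlier (right panel), orange for genes higher and blue for genes lower at midday in *rve8-1*, with a dashed line of equal values and 9 named genes in black. In the left panel *CCA1* (2.15 in *rve8-1*, -0.84 in Col) and *COR27* (-1.93, 1.64) lie across 0 from the line, and in the right panel both lie beside it (Col, 2.00 and -1.65).

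The days of free run were compared last, since they supply the replicates. For genes higher at midday the absolute difference had a median of 0.56 on day 5 and 0.76 on day 4, and it was smaller on day 5 for 70.2% of them. For genes lower at midday the medians were 0.45 on day 5 and 0.69 on day 4, with 78.1% smaller on day 5, beside 65.1% of all genes kept. A test of the day 5 difference against the day 4 difference called 135 genes (0.71%), 28 with a higher and 107 with a lower value on day 5. Of the 135, 3 were among the genes called between midday and late night, beside 11.2% of all genes kept. A change between days enters the error of the main test, so few shared calls are built in and do not show called genes to be stable. The 25th percentiles of the arrays moved with these sides, being 3.76 and 3.83 at midday and 3.92 and 4.06 late at night on day 5, and 3.92 and 3.96 at midday and 3.79 and 3.76 late at night on day 4. With that percentile as a covariate, 0 genes were called between days and 2958 between midday and late night. The percentile was higher at midday on day 4 and lower on day 5, the same pattern as the term tested between days. A low count between days under this covariate is therefore partly built in. After median centring 286 genes were called between days, and the cause was not tested. Of the clock genes in both lists, *ZTL*, at 0.22 on day 5 and -0.31 on day 4, and *LKP2*, at 0.12 and -0.39, had differences of opposite sign on the 2 days, and neither was called. The others kept their sign. *LNK3* differed by 3.48 on day 5 and 3.91 on day 4, *CCA1* by 2.24 and 2.06, *TOC1* by -1.44 and -1.97, and *JMJD5* by -2.89 and -3.13.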

How the data were processed

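RNA of Col and *rve8-1* seedlings was measured on 24 AGRONOMICS1 tiling arrays. The authors masked poorly performing probes and used RMA for background correction, normalization and summarization over TAIR9 genes, and the deposited values are log2 expression levels of 30237 genes, with no version of the software given in the sources used here. RMA makes the arrays share a distribution of probe values, so a change common to most genes would be lost. No further scaling was applied. The table held 0 columns of samples from elsewhere, and 29715 of its genes were found in the TAIR10.1 annotation.

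Genes above 4.5 on at least 4 of 12 *rve8-1* arrays were fitted in limma 3.58.1 (R 4.3.3) with 1 mean for each of 6 times of day (6 residual and 3.88 prior degrees of freedom). The contrast was the mean of CT4 and CT8 minus the mean of CT16 and CT20, tested with the moderated statistic (two-sided) and Benjamini-Hochberg adjustment over 19018 genes, and a call needed an adjusted p under 0.05. Differences from Col were tested in a fit of all 24 arrays (12 residual degrees of freedom), and day 5 minus day 4 in a fit with 4 residual degrees of freedom. Replicates are harvests 24 h apart, and no source says that they came from separate cultures, so p-values measure only the spread between them, which may be partly technical and partly a change over the day. Where an array was left out, its time kept 1 array that was assumed to vary like the others. The tests were tried on simulated data. Alternatives covered the filter, scaling, variance prior, threshold, grouping of arrays, replicate block and each array left out.

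Of 320 list symbols, 289 were resolved to a gene on the array, 13 were ambiguous, 8 had no match and 10 were not in the table used here. Loci with more than 1 feature took the one with the highest mean. Named genes were the 2 clock lists, the 12 largest rises and falls with a symbol and no overlap, up to 3 of the largest calls in each other list and the 5 smallest p in each test against Col. The rule, the members and the lists were chosen with earlier results of these data known. The difference in period between genotypes was not modelled. Cosines had a period of 24 h. Figures were drawn with Python 3.11.15 and matplotlib 3.10.9.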

Additional observations from a re-analysis of the deposited data

Results flagged for a closer look

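Values on the 4 arrays of a side were screened for an array that stands apart, by the gap to its nearest neighbour as a share of the range. Of 168 sides of the 84 genes named, 4 had a share above Dixon's 95% critical value, and chance alone flags about 1 side in 20. In each of the 4 the array was that of 76 h (CT4, day 4) on the midday side: *JMJD5* with a share of 0.897, *LHCB2.3* with a share of 0.853, *LNK4* with a share of 0.894 and *SS4* with 0.858. At 76 h *LNK4* stood at 9.37 (8.78 to 8.85 on the other midday arrays) and *LHCB2.3* at 12.48, above the others, while *JMJD5* stood at 4.68 and *SS4* at 5.11, below them. Each departure widened the difference from late night, which the choice of many of these genes for a large difference favours.

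For 60 of the 84 genes the midday minus late night difference was unequal between the genotypes at the same harvest times (limma, adjusted p under 0.05). The value was larger in *rve8-1* for 31 and smaller for 29. Between the days the difference was unequal for 0 of the 84. Over all genes kept these shares were 10.2% between the genotypes and 0.71% between the days. Many of the 84 were named for a large difference in *rve8-1*, and 5 for the smallest p in this same test. The 60 are therefore a list for inspection and no result about the named genes as a set. The values that follow are the *rve8-1* difference minus the Col difference. Among morning clock genes it was above 0 for *CCA1* 2.99, *LHY* 3.36, *RVE1* 2.35, *RVE4* 0.93, *LNK1* 0.94, *LNK2* 2.38, *LNK3* 3.06 and *LNK4* 2.36, and below 0 for *PRR7* -0.97. In the afternoon and evening clock list it was *PRR5* -2.07, *PRR3* -2.85, *TOC1* -1.85, *GI* -1.62, *LUX* -1.41, *ELF3* -0.90, *ELF4* -0.97, *FKF1* -2.55 and *COR27* -3.58. For the other large rises it was *BBX28* 1.29, *COL2* 3.89, *BETA-OHASE 2* 4.08, *BBX16* 3.13, *GDPD6* 2.33, *PIF5* 0.84 and *BBX30* 2.47, and for the other large falls *JMJD5* -2.97, *BT2* -2.57, *COL9* -1.88, *NYC1* -1.92, *BBX8* -1.94, *emb2746* -1.24, *RIBA2* -1.93 and *FBA5* -2.23. Flowering and growth genes gave *TEM2* 0.74, *CDF2* 1.62 and *PIF4* -1.11. In photosynthesis and pigment synthesis the values were *LHCB2.3* 1.42, *HEMA1* 1.08, *CHLH* 0.90, *ABA1* 1.41, *NPQ1* -1.13 and *ISPH* 0.83. Starch genes gave *PHS2* -2.28, *SEX1* -1.71, *GBSS1* 3.28, *SBE2.1* -1.04, *SS4* -0.90 and *AMY3* -2.02. The rest were *LDOX* 2.86, *RD29A* -1.84, *COR15B* -2.13, *SOT17* 0.55, *HSFB2A* 0.52, At5g66740 2.28, *BBX32* 3.25, *ERD9* 2.49, *RUP2* 1.72, At1g30390 -1.72, At1g08230 0.48 and *CLE10* -0.70.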

How the results depend on the processing

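A stricter adjusted p of 0.01 left 417 genes called (270 higher, 147 lower, 205 at 2-fold or more), 91 of them also between CT0 and CT12, 972 against Col at the same times and 0 between days. Without the expression filter 818 genes were called (507 higher, 311 lower), 154 of them between CT0 and CT12, and 0 between days, with more genes tested. Without moderation 848 were called (474 higher, 374 lower, 199 at 2-fold or more), 142 of them between CT0 and CT12, 3 against Col 4 h earlier and 1 between days. With all 24 arrays in the fit 5347 were called (3309 higher, 2038 lower), 804 of them between CT0 and CT12. Single hours gave fewer calls: CT4 minus CT16 called 709 (429 higher, 280 lower, 369 at 2-fold), CT4 minus CT20 called 245 (168 higher, 77 lower, 183 at 2-fold), CT8 minus CT16 called 302 (178 higher, 124 lower, 193 at 2-fold) and CT8 minus CT20 called 286 (182 higher, 104 lower, 181 at 2-fold), each from fewer arrays. The count against Col 4 h earlier became 1 after median centring and 3 with a trended robust prior, and the count between days became 286 after median centring, 1 after quantile normalization and 87 with genes above 4.5 on all 12 arrays. The 25th percentile as a covariate, chosen after seeing the data, gave 1134 lower and 0 between days. It follows the same pattern as the term tested between days, so that 0 is partly built in. The causes of these shifts were not tested.

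Leaving out each array in turn gave 473 to 3358 genes called, 299 to 2189 higher, 174 to 1169 lower, 190 to 473 at 2-fold or more, 85 to 346 also called between CT0 and CT12, 1389 to 2551 against Col at the same times, 0 to 294 against Col 4 h earlier and 0 to 809 between days. Total calls moved by over 1.5 times without the *rve8-1* arrays of 76 h (473), 80 h (627), 84 h (1220), 88 h (703), 104 h (3358), 108 h (1220) and 116 h (594), and without the 92 h array genes called lower numbered 497. Calls shared with the CT0 and CT12 comparison numbered 144 without the 72 h array and 194 without the 96 h array. Against Col 4 h earlier 22 genes were called without the 104 h array, and between days 809 without the 72 h or the 96 h array and 0 without any other. Same-day arrays of different times share only the day of free run, and day 5 minus day 4 changes correlated over 0.1 in 4 of 15 pairs of times (range, -0.34 to 0.55). With the replicate block 1443 genes were called (931 higher, 512 lower), 1919 against Col at the same times and 0 against Col 4 h earlier.

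Of the 79 named genes that were called, 51 kept the call under every alternative refitted for single genes (up to 21 each) and 28 lost it in at least 1, and none changed direction in these. The single hours, the threshold of 0.01 and the covariate were run for counts alone. By mean values, CT8 minus CT20 had the opposite sign in 7 of the 79 genes (*PRR5*, *LUX*, *FKF1*, *LDOX*, *COR15B*, *BBX32* and *AMY3*), and the other 3 pairs of hours in 0. The 4 arrays a side from 1 line, summarized before deposit, limit precision. Signal over background could not be judged from these values. The search of promoters was not run, since promoter sequences were not used here.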
